A study of Mus musculus with 550 samples.

Results

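The data described here were the day 3 cells of 2 mutant 96-well plates, plates 210 and 211, taken from a single-cell RNA-seq series of mouse embryoid bodies. Of the 550 cells in the series, 182 were on these plates, and 163 passed the cell filter, 79 on plate 210 and 84 on plate 211. The plates were grouped by plate and not by genotype label, because the measured Dnmt3a reads put plate 211 low and plate 210 high in both library batches while the genotype labels of the plates changed places between batches. This choice rested on a readout of the same cells, so every value of the plate contrast is a description and no test was run. A cell was kept with at least 50000 reads, at least 2000 genes with a read and at most 50% mitochondrial reads. The kept cells nearest to these limits had 88201 reads, 2211 genes and 31% mitochondrial reads, and the nearest failing cells had 17977 reads, 1996 genes and 52.7% mitochondrial reads. Y-linked genes were left out.

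The cells came from E14 embryonic stem cells of strain 129/Ola, either wild type (WT), Dnmt3a-/- (3AKO) or Dnmt3b-/- (3BKO), which had been allowed to form embryoid bodies after LIF was withdrawn. Single cells were sorted into wells, and Smart-seq2 libraries were made for each well, so that every well held the reads of a single cell with no molecular identifiers. Plate columns 1 to 8 were batch 1 and columns 9 to 12 were batch 2. On plate 210, batch 1 was labelled 3BKO and batch 2 was labelled 3AKO. On plate 211, batch 1 was labelled 3AKO and batch 2 was labelled 3BKO. Plate 209 held WT cells at day 3, and plates 234 (WT), 236 (3AKO) and 238 (3BKO) held cells from day 9, all with 1 label in both batches. The study used independent clones of each knockout, but the labels do not say which clone or culture a cell came from, so each plate was counted as 1 sample and its batches as 2 libraries of it. Plate, genotype, clone and culture cannot be told apart in this contrast.

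The 4 day 3 mutant libraries were of similar depth. Kept cells had a median of 215100 to 310260 reads and 7015 to 7182.5 genes per library, from 25 to 58 cells each. The median share of mitochondrial reads was 5.92% on plate 210 and 6.31% on plate 211 in batch 1, and 11.5% and 13.2% in batch 2, so this share went with the batch more than with the plate. No well was repeated, and 0 of the 550 count columns were identical.

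DNMT3A and DNMT3B are the de novo DNA methyltransferases, which put methyl groups on unmethylated CG sites, and DNMT3L is their catalytically inactive partner. In the mouse embryo both enzymes methylate the genome of the epiblast as it leaves naive pluripotency, and DNMT1 then copies the pattern at each division. Promoters of germline genes are well known to be held silent in somatic cells and in the epiblast by methylation of their CG sites, and imprinted genes are expressed from a single parental allele according to methylation inherited from the gametes. Embryoid bodies pass from a naive to a primed, epiblast-like state in the first days after LIF withdrawal and later form the germ layers.

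Dnmt3a (chr12:3806007-3914443, plus strand, GRCm38) was read at 587 CPM (counts scaled to the same total in every library) on plate 210 in batch 1, with an exact Poisson 95% interval of 573 to 601, and at 335 CPM (322 to 347) in batch 2. Plate 211 had 25.8 CPM (23.1 to 28.7) in batch 1 and 12.8 CPM (10.6 to 15.2) in batch 2. The WT plate had 455 CPM and 268 CPM. Plate 211 was thus the low plate in either batch, and the library labelled 3AKO was the low one in batch 1 and the high one in batch 2. Intervals here and below cover counting error only, since amplified reads without identifiers are not independent molecules.

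The same order was seen cell by cell. The median cell of plate 210 had 492 CPM of Dnmt3a in batch 1 and 334 CPM in batch 2, against 6.32 and 5.95 CPM on plate 211, and 100% of the plate 211 cells lay below the plate 210 median of their batch. The ranges still overlapped, because the highest plate 211 cells reached 207 and 125 CPM while the lowest plate 210 cells had 0 and 11.3 CPM. After each cell was thinned to 50000 reads, 98.1% and 96% of the plate 210 cells had a Dnmt3a read, and 44.8% (exact Clopper-Pearson 95% interval 31.7 to 58.5) and 42.3% (23.4 to 63.1) of the plate 211 cells did. Without thinning the plate 211 shares were 60.3% and 57.7%. The strand used for counting was not given in the sources used here, so Dnmt3a reads cannot be separated from those of the overlapping antisense gene Dnmt3aos. For comparison, at day 9 the library pairs labelled 3AKO and 3BKO had 25.2 and 63 CPM of Dnmt3a.

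**Figure D1:**
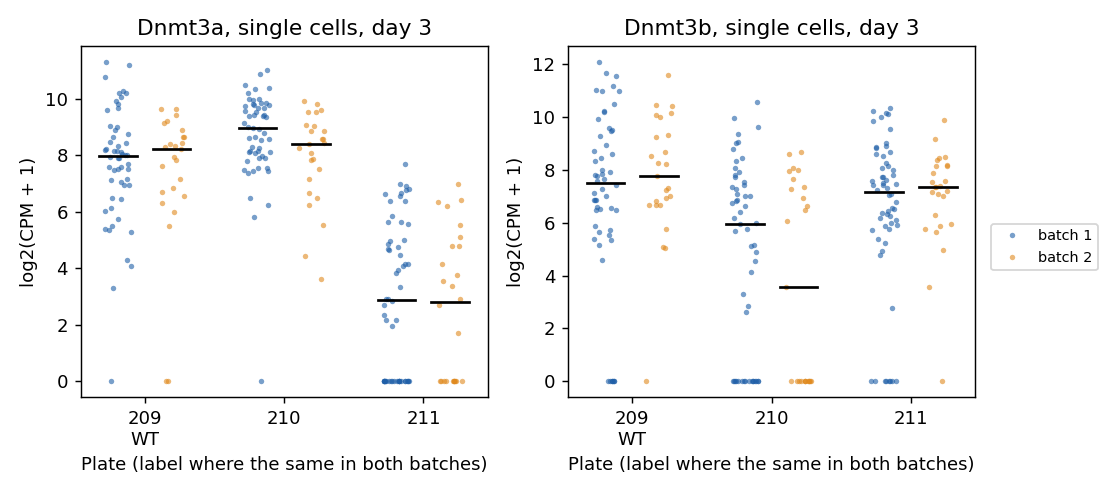
Dnmt3a (left) and Dnmt3b (right) in single kept cells at day 3, as log2(CPM + 1) on the vertical axis, by plate on the horizontal axis; points are cells, blue for batch 1 and orange for batch 2, and black lines are medians. Dnmt3a medians are 492 and 334 CPM on plate 210 and 6.32 and 5.95 CPM on plate 211, while Dnmt3b medians are 61.6 and 10.7 CPM on plate 210 and 142 and 161 CPM on plate 211.

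Dnmt3b (chr2:153649450-153687730, plus strand), which did not enter the choice of plates, was lower on plate 210 than on plate 211 in both batches and was present on both plates. Its level was 167 CPM (160 to 174) and 85.1 CPM (78.9 to 91.7) on plate 210 in batches 1 and 2, against 261 CPM (252 to 270) and 185 CPM (177 to 194) on plate 211. The log2 ratio of plate 211 to plate 210 on the log2(CPM + 1) scale was 0.64 in batch 1 and 1.11 in batch 2. Both plates lay below WT, which had 600 and 523 CPM. Thinned cells with a Dnmt3b read made up 61.1% and 48% of plate 210, 81% and 88.5% of plate 211 and 87% and 96% of the WT plate. The library labelled 3BKO in batch 2, on plate 211, therefore had more Dnmt3b than the library labelled 3AKO of the same batch. At day 9 Dnmt3b stood at 252 CPM under the 3AKO label and 16.4 CPM under the 3BKO label.

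Of the other methylation genes, Dnmt3l was higher on plate 211. It had 52.2 and 104 CPM on plate 210 and 431 and 196 CPM on plate 211, with 107 CPM in WT over both batches. Thinned cells with a Dnmt3l read made up 44.3% (33.1 to 55.9) of plate 210 and 94.0% (86.7 to 98.0) of plate 211. Because the ratio in batch 2 was 0.91, Dnmt3l did not reach a log2 ratio of 1 in both batches. The maintenance enzyme Dnmt1 had ratios of -0.07 and -0.17, and the demethylating enzymes Tet1 and Tet2 had -0.41 and -0.10, and -0.36 and -0.68. Of the 18 methylation and demethylation genes listed, 16 had enough cells with reads, and among them Dnmt3a alone was past the limits used below. The most abundant of the 16 were Trim28, a corepressor that keeps imprints and retroelements methylated (0.47 and 0.37), and the chromatin remodeller Hells (-0.42 and 0.38).

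Across the transcriptome, the plate contrast was computed for 10378 genes with a read in at least 20% of the kept cells of either plate in each batch, hereafter the tested genes. A gene was taken as past the limits when its log2 ratio of plate 211 to plate 210 was at least 1, or at most -1, in both batches. This rule of size left 196 genes higher on plate 211 (1.89% of those tested) and 218 higher on plate 210 (2.10%), Dnmt3a among them. Batch 1 alone had 496 and 498 genes past 1 in the respective directions, and batch 2 alone had 1025 and 1397. A further 64 genes passed 1 in opposite directions in the batches. With 1 sample per plate none of these counts carries a p-value.

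The batches, which shared no cells, gave ratios with the same sign for 59% of tested genes (6122). Across genes, the Pearson correlation of the ratios of the batches was 0.35 and the Spearman correlation 0.29, as a description over genes that are not independent. The median ratio over all tested genes was -0.00 in batch 1 and -0.14 in batch 2. Ratios in batch 2 also moved with base composition, with a Spearman correlation across 10290 genes of -0.24 for GC percent and 0.15 for transcript length. The same correlations in batch 1 were 0.06 and -0.03. Their part in the contrast was not tested.

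**Figure D2:**
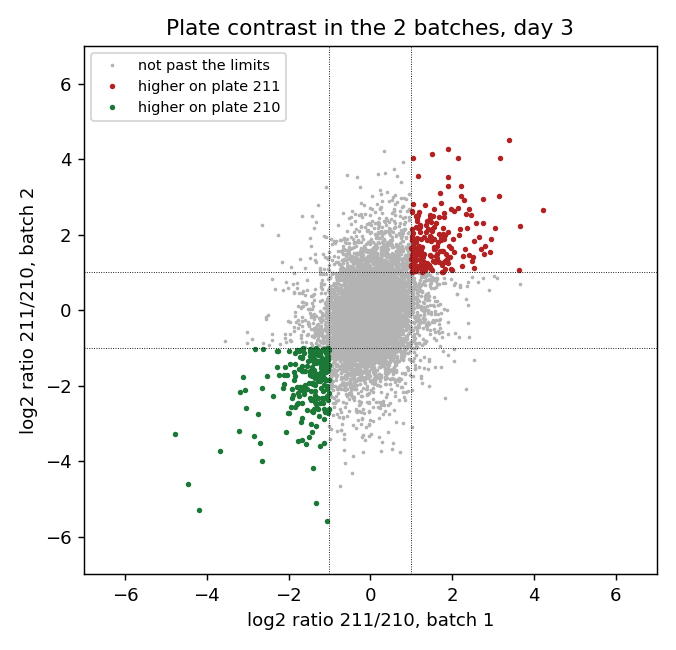
Log2 ratio of plate 211 to plate 210 for the 10378 tested genes, batch 1 on the horizontal axis and batch 2 on the vertical axis; red points are the 196 genes at 1 or above in both batches, green points the 218 at -1 or below in both, grey points the rest, and dotted lines mark the limits. The cloud is broad and tilted upwards, with a Pearson correlation across genes of 0.35.

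The 15 named genes highest on plate 211 were of varied function. Klhl13, an adaptor of cullin ubiquitin ligases, was at 6.39 and 4.71 CPM on plate 210 and 76.6 and 128 CPM on plate 211, and 8.93 CPM in WT. A single cell held 42.9% of the Klhl13 reads of plate 211, but 41.7% (31 to 52.9) of thinned plate 211 cells had a read against 13.9% (7.16 to 23.6) on plate 210. Naaa, a lysosomal amidase of lipid mediators, had 0.995 and 1.24 CPM on plate 210 and 36.2 and 13 CPM on plate 211. Neither gene had overlapping library intervals between plates, and WT was nearer to plate 210 for both.

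Calcoco2, an autophagy receptor, had 8.30 and 1.86 CPM on plate 210 and 80.8 and 22.2 CPM on plate 211, with log2 ratios of 3.14 and 3.02. Camkk1, a kinase upstream of calmodulin-dependent kinases, had 0.332 and 1.12 CPM against 15.7 and 8.82 CPM. Coro6, an actin-binding coronin, was at 0.747 CPM on plate 210 in batch 1 and had 0 reads in batch 2, where its 6.69 CPM on plate 211 was at least 18-fold higher, taking 3 counts in the library as the floor. The remaining members of this group had ratios between 2.15 and 4.03 in the batches. They included Arhgap30 (2.15 and 4.03), the phospholipase Pla1a (2.28 and 2.93), the telomere attachment gene of meiosis Terb2 (2.41 and 2.69) and the noncoding RNA Eprn (2.76 and 2.31). The muscle protein gene Ttn (2.22 and 3.02), the retinoid carrier Rlbp1 (2.45 and 2.52), Tmem106a (2.59 and 2.30), the growth factor Pdgfc (2.34 and 2.55) and the glypican Gpc4 (2.38 and 2.18) completed it.

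Peg10, an imprinted gene expressed from the paternal allele and required for the placenta, had 0 reads on plate 210 in either batch and 7.25 and 3.55 CPM on plate 211. Over both batches plate 211 was at least 37.8-fold higher, with the floor at 3 counts over the plate. Thinned cells with a Peg10 read were 14 of 84 (16.7%, 9.42 to 26.4) on plate 211 and 0 of 79 on plate 210, where the exact interval reaches 4.56% and the floor of 3 cells is 3.8%; both limit cells with a read, not cells that express the gene. WT had 2 Peg10 reads, or 0.101 CPM.

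The 15 named genes lowest on plate 211 were varied in function as well. Vax2, a homeobox gene of the ventral eye, had 60.2 and 29.6 CPM on plate 210, 1.25 and 2.13 CPM on plate 211 and 31.7 CPM in WT. Thinned cells with a Vax2 read were 36.7% (26.1 to 48.3) of plate 210, 40.5% (29.6 to 52.1) of the WT plate and 4.76% (1.31 to 11.7) of plate 211. The neighbouring noncoding gene Vax2os followed it, with 28.2 and 29.9 CPM against 3.04 and 2.03 CPM. For this pair of genes plate 211 was the plate that stood away from WT.

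Egln3, a prolyl hydroxylase that marks hypoxia-inducible factors for destruction and is itself induced by them, had 73.5 and 71.1 CPM on plate 210 and 4.83 and 4.46 CPM on plate 211, with 45.7 CPM in WT. Trh, the thyrotropin-releasing hormone gene and one of the epiblast markers, had 938 and 394 CPM against 102 and 87.3 CPM, with 307 CPM in WT. In 88.1% of plate 211 cells Trh was below the median cell of plate 210, and single cells of both plates ranged from 0 to more than 1000 CPM over both batches. The protease inhibitor A2m (log2 ratios -3.22 and -3.22), the acyl-CoA thioesterase Acot1 (-2.76 and -2.76) and the carbonic anhydrase Car14 (-2.65 and -2.07) had like ratios in both batches. Acot1 lies in a stretch of chromosome 12 described below. Its reads that match near-identical thioesterase copies equally well were not counted, since multi-mapped reads were left out. Car14 shares exon sequence on the opposite strand with Aph1a. The histone genes Hist1h1e (-3.04 and -2.60), Hist2h2ac (-3.07 and -2.13) and Hist1h1b (-2.39 and -2.28) are described with their family below.

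The other 4 of these genes had most of their plate 210 reads in few cells. Polr2a, the gene of the largest RNA polymerase II subunit, had 884 and 1163 CPM on plate 210 against 47.3 and 28.5 CPM on plate 211, and a single cell held 50.5% of the plate 210 reads. On plate 210, 3 kept cells had fewer than 4000 genes (2779 in batch 1, 2211 and 2649 in batch 2), and plate 211 had 0 such cells. They held 95% and 97.9% of the Polr2a reads of plate 210 in the respective batches, 94.1% and 97.7% of those of Rpph1, the RNA of ribonuclease P, 93% and 89.4% of those of the splicing factor gene Sf3a2, and 53.1% and 73.9% of those of the RNA-binding protein gene Zfp36l1. Without these 3 cells Polr2a stood at 45.6 and 26.4 CPM on plate 210 with ratios of 0.05 and 0.11. Sf3a2 then had 0.55 and -0.75, Rpph1 0.86 and 0.63, and Zfp36l1 -1.06 and -1.48. The other 26 of the 30 named genes, and Zfp36l1, stayed past the limits, and 166 of the 196 genes and 165 of the 218 genes past the limits were among the 174 and 200 found without these cells.

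**Figure D3:**
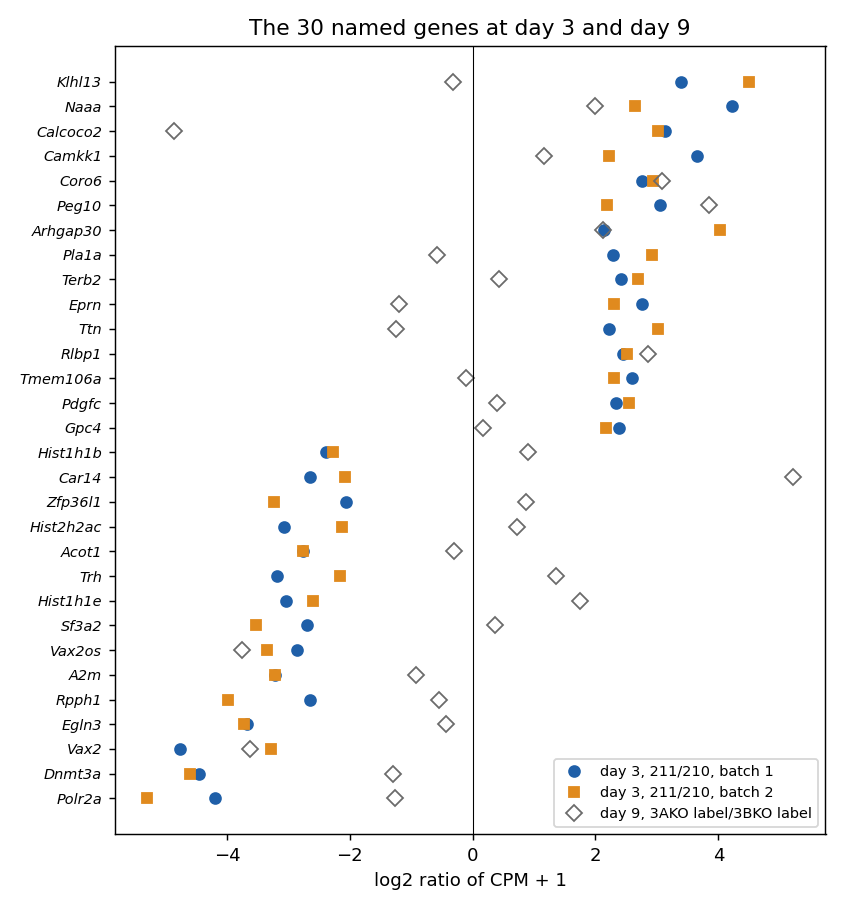
Log2 ratio of CPM + 1 on the horizontal axis for the 15 highest and 15 lowest named genes; blue circles and orange squares are plate 211 over plate 210 at day 3 in batches 1 and 2, and open diamonds are the library pair labelled 3AKO over that labelled 3BKO at day 9. Day 3 symbols lie on the same side of 0 in both batches because the naming rule requires it, whereas the day 9 symbols lie on either side, from Calcoco2 at -4.87 to Car14 at 5.22.

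The WT level over both batches lay between the 2 mutant plates for 13 of the 15 highest and 13 of the 15 lowest named genes. These genes, Dnmt3a among them, were picked for large differences between the 2 plates, so this position follows in part from the choice. The share over all tested genes was not computed. The WT level was nearer to plate 210 for 11 of the highest and 8 of the lowest, and nearer to plate 211 for the others. Those others included Polr2a, Sf3a2, Rpph1 and Zfp36l1, whose plate 210 reads lay mostly in the 3 cells with few genes. Exceptions to the between position were Pdgfc, Sf3a2 and Rpph1, where WT was below both plates, and Ttn, where WT (65 CPM) was above both.

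Genes of glycolysis and of the hypoxia response were lower on plate 211 almost without exception. Of 24 listed genes, 22 were tested and 21 had ratios below 0 in both batches, where 33.1% of all tested genes did, and 0 had ratios above 0 in both, where 25.9% of all tested genes did. The median ratio of the 22 genes was -0.72 in batch 1 and -1.39 in batch 2. The gene with mixed signs was Pdk1 (-0.12 and 0.06). Past the limits were 4 of them, Slc2a1, Tpi1, Egln3 and Ankrd37, all higher on plate 210, as were 2.10% of all tested genes. Ankrd37 lies on chromosome 8 and Hk2 in a stretch of chromosome 6, both described below as lower on plate 211.

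Slc2a1, a widely expressed glucose transporter, had 2441 and 2284 CPM on plate 210, 713 and 411 CPM on plate 211 and 1145 CPM in WT. In 95.2% of plate 211 cells Slc2a1 was below the plate 210 median. Triosephosphate isomerase, encoded by Tpi1, had 1230 and 968 CPM against 562 and 271 CPM, and 943 CPM in WT. Ankrd37, a target of hypoxia-inducible factors, had ratios of -1.85 and -1.43 at low levels, from 13 CPM down to 1.12 CPM. Abundant enzymes of the pathway had ratios of the same sign with smaller size, such as Pkm (-0.58 and -1.19), Aldoa (6016 and 4410 CPM against 3675 and 1896 CPM) and Ldha (4890 and 3275 CPM against 2494 and 1478 CPM). Slc2a1, Tpi1 and Ankrd37 overlap exons on the opposite strand, so their reads are uncertain to that degree.

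Germline genes had a higher median ratio on plate 211 than all tested genes, 0.55 and 0.48 in batches 1 and 2. Of 30 listed genes, 16 were tested, 8 had ratios above 0 in both batches, 1 (Dmc1) had ratios below 0 in both and 7 were mixed, beside 25.9% of all tested genes above 0 in both and 33.1% below. The 4 past the limits were all higher on plate 211, as were 1.89% of all tested genes. The median over both batches together was 0.47, but it was 0.10 when the cell with the most reads of each gene was left out of each library. They were Stra8, the retinoic acid target that starts meiosis, Smc1b, a meiotic cohesin subunit, Hormad1, a protein of the unsynapsed chromosome axis, and Fkbp6, needed for meiosis and piRNA formation in the male germline. Since silencing of germline promoters depends on methylated CG sites, their promoters are shown here from 250 bases before to 50 bases after the start, read 5′ to 3′ on the gene's strand, with CACGTG in capitals. This 6-base palindrome, an E-box in the promoters of many germline genes, reads the same on both strands.
Stra8: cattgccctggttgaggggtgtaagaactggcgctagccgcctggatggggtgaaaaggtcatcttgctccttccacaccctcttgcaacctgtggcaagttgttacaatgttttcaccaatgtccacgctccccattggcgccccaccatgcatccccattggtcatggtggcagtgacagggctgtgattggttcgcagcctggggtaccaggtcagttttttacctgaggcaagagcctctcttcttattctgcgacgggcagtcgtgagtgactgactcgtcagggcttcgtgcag
Smc1b: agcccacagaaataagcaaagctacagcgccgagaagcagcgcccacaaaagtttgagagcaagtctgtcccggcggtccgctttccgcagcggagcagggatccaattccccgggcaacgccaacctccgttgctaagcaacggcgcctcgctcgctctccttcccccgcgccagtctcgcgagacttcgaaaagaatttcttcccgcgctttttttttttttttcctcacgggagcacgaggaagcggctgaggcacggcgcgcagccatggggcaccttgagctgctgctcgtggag
Hormad1: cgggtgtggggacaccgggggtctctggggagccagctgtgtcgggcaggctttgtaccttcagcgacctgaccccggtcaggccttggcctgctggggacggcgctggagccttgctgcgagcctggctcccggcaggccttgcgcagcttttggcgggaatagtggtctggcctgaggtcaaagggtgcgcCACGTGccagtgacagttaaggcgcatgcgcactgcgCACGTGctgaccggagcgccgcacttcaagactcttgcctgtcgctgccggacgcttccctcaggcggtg
Fkbp6: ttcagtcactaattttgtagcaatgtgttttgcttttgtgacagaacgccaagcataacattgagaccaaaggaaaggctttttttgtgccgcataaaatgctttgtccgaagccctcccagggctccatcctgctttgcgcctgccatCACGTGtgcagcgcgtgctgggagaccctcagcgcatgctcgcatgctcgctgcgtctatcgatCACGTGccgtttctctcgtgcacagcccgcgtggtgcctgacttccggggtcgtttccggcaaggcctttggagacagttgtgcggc
The sequences are RefSeq's on GRCm38.p6, at chr6:34920698-34920997 (plus strand) for Stra8, chr15:85131908-85132207 (minus) for Smc1b, chr3:95559427-95559726 (plus) for Hormad1 and chr5:135349995-135350294 (minus) for Fkbp6. They held 10, 29, 24 and 21 CG sites, in that order, and Hormad1 and Fkbp6 each held 2 matches to CACGTG. The motif was found in 16 of 31 windows of the germline list (51.6%, 27 of 30 genes matched), in 10.8% of 9845 windows of tested genes and in 7.15% of all 32851 promoter windows. It was in 8.91% of windows of genes past the limits and higher on plate 211, and in 6.95% of those higher on plate 210. Methylation itself was not measured in these cells.

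Stra8 had 22.8 and 13.5 CPM on plate 210, 74.7 and 78.5 CPM on plate 211 and 4.77 CPM in WT. Smc1b had 7.30 and 7.19 CPM against 20.4 and 33.5 CPM, and 0.660 CPM in WT. Hormad1 was read at 19.9 and 34.8 CPM against 41.3 and 136 CPM, and Fkbp6 at 3.57 and 4.09 CPM against 15.0 and 11.4 CPM. WT was below both mutant plates for each of the 4 genes, with Hormad1 at 15.3 CPM and Fkbp6 at 2.13 CPM. Thinned cells with a Stra8 read were 8.86% (3.64 to 17.4) of plate 210, 44% (33.2 to 55.3) of plate 211 and 7.59% (2.84 to 15.8) of the WT plate. The corresponding shares for Smc1b were 17.7%, 45.2% and 3.8%. Dazl, an RNA-binding protein of germ cells, had 17.4 and 25.8 CPM on plate 210 and 35.3 and 69.97 CPM on plate 211, a ratio of 0.98 in batch 1 just short of the limit. Other germline genes had ratios on either side of 0, such as Ddx4 (-0.28 and 0.09) and Mael (0.02 and -0.80), and the 8 listed Rhox genes were not detected in enough cells to be tested.

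Of 31 imprinted genes, 19 were tested, with 7 above 0 in both batches, 5 below and 7 mixed, beside 25.9% of all tested genes above and 33.1% below. Medians were 0.12 and 0.43. Besides Peg10, the growth inhibitor Grb10 and the translation regulator Impact were past the limits, both higher on plate 210. Over all tested genes, 1.89% were past the limits and higher on plate 211, and 2.10% higher on plate 210. The abundant Mest had -0.44 and -0.16. Grb10 had 93.8 and 112 CPM on plate 210, 22.4 and 16 CPM on plate 211 and 70.2 CPM in WT, and Impact had ratios of -1.40 and -1.96. Thinned cells with a Grb10 read were 74.7% (63.6 to 83.8) of plate 210 and 28.6% (19.24 to 39.5) of plate 211. H19 was detected in too few cells to be tested and had 0 reads on plate 210.

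Pluripotency genes had no common direction. All 10 core genes were tested, 1 was above 0 in both batches, 5 below and 4 mixed, with medians of -0.12 and -0.40. The shares over all tested genes were 25.9% above and 33.1% below. Pou5f1 had ratios of -0.10 and -1.25, Nanog 0.57 and -0.60 and Sox2 0.25 and -0.49. The most abundant members, Tdgf1 and Utf1, had -0.26 and -0.58, and -0.14 and -0.32. Dppa2, which protects developmental promoters from methylation, was past the limits, with 71.6 and 124 CPM on plate 210, 150 and 350 CPM on plate 211 and 153 CPM in WT.

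Naive pluripotency genes had medians of 0.41 and -0.07 over 15 tested of 16, with 5 above 0 in both batches, 3 below and 7 mixed. Among all tested genes 25.9% were above 0 in both batches and 33.1% below. Tfcp2l1, a naive-state transcription factor, was past the limits at 1.25 and 1.56, while the abundant Dppa5a had 0.87 and -0.07 and Tdh 0.12 and -1.68. Primed epiblast genes had medians of -0.65 and -0.69 over 7 tested of 12. Their members included Fgf5 (-0.65 and -1.99), Otx2 (-0.70 and -1.13), Sfrp2 (-0.41 and -0.53) and Lef1 (-1.06 and -2.10), which was past the limits, while Sox4 (0.75 and 0.40) was higher on plate 211.

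Marker lists were used to see which cell types the plates held. The 18 epiblast markers summed to 12006 and 8416 CPM on plate 210, 16398 and 7474 CPM on plate 211 and 14054 and 7532 CPM in WT. Of 17 tested, 3 were above 0 in both batches, 8 below and 6 mixed, with Trh past the limits and medians of -0.10 and -0.32. Lefty1, an inhibitor of Nodal and next to Dppa5a the most abundant of them, had 0.07 and 0.42. Markers of other cells were far lower. Ectoderm markers summed to 606 and 506 CPM on plate 210, 359 and 258 CPM on plate 211 and 376 and 360 CPM in WT. Of 9 tested, 0 were above 0 in both batches and 7 below, with medians of -1.24 and -0.65. Over all tested genes 25.9% were above 0 in both batches and 33.1% below. The neural factor Sox1 (17 and 11.7 CPM against 3.51 and 0.913 CPM) was past the limits. Tubb3, a neuronal tubulin and the most abundant ectoderm marker tested, had -0.49 and -0.95. Both Sox1 and Tubb3 lie on chromosome 8, which taken as a whole was lower on plate 211, as described below. Without the 3 cells of plate 210 with few genes, the ectoderm median over both batches went from -1.33 to -0.45.

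Other lineages left few reads at this day. The 22 meso-endoderm markers summed to 64.7 and 9.04 CPM on plate 210 and 21.8 and 30.9 CPM on plate 211, the 14 trophoblast markers to 50.3 and 22.6 CPM and 32 and 25.2 CPM, and the 16 primitive and visceral endoderm markers to 210 and 123 CPM and 146 and 72.3 CPM. In these 3 lists 1, 2 and 2 genes were tested, and 0 passed the limits. The primitive streak gene T had 0 reads on plate 210, and Eomes had ratios of -1.20 and 0.99. Tfap2c of the trophoblast list had 0.97 and -0.56, and the matrix genes Sparc and Col4a1 of the endoderm list had -0.51 and -1.18, and 0.48 and 1.44. The part of the other cell types in the plate contrast was not tested.

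**Figure D4:**
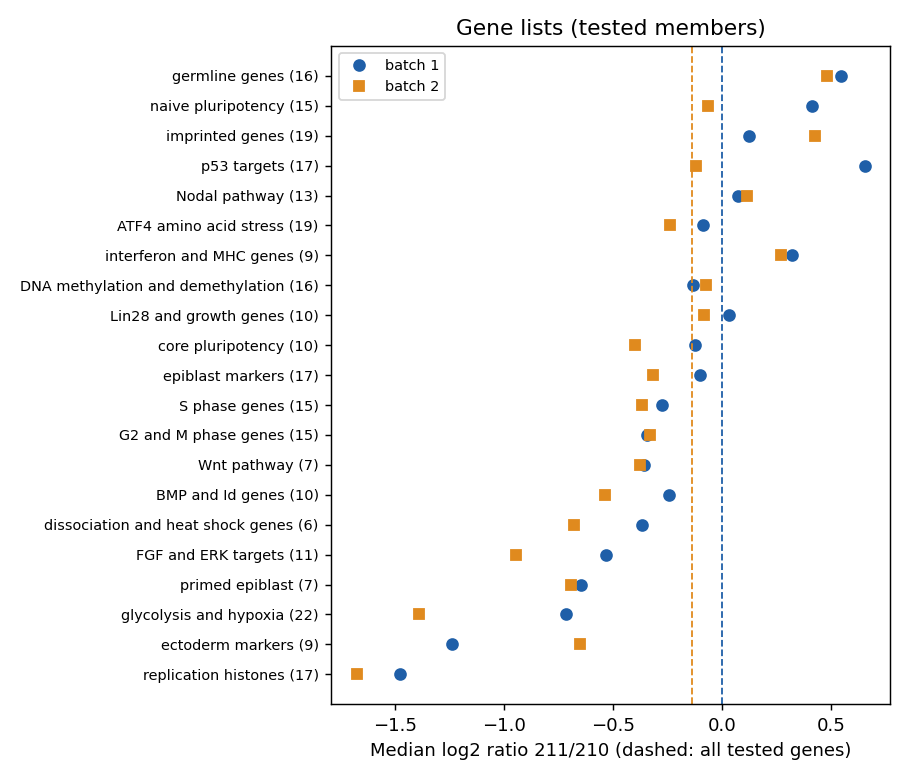
Median log2 ratio of plate 211 to plate 210 over the tested members of each gene list (number of tested members in brackets), with blue circles for batch 1 and orange squares for batch 2; dashed lines are the medians of all tested genes, -0.00 and -0.14. Germline genes lie to the right of both lines at 0.55 and 0.48, and glycolysis and hypoxia genes to the left at -0.72 and -1.39; the replication histone list was drawn up after the data were seen.

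Among signalling genes, a list of FGF ligands, receptors and ERK targets had medians of -0.53 and -0.94 over 11 tested of 14. Of these, 1 was above 0 in both batches and 6 were below. For this and the next lists, 25.9% of all tested genes were above 0 in both batches and 33.1% below, and 2.10% were past the limits and higher on plate 210. Over both batches together the median was -0.71, but it was -0.20 with a stricter cell filter, -0.35 without the cells under 4000 genes and -0.41 without the cell with the most reads of each gene. The feedback inhibitors Spry4 (76.3 and 68.1 CPM against 32.7 and 21.1 CPM) and Dusp6 (150 and 150 CPM against 70.7 and 54.3 CPM) were past the limits. The WT levels were 38.1 CPM for Spry4 and 116 CPM for Dusp6. By contrast the abundant Fgf4 and Etv5 had ratios near 0, at -0.09 and 0.12, and 0.08 and -0.20. BMP and Id genes had medians of -0.24 and -0.54 over 10 tested of 13, with Id2, a target of BMP signals that blocks differentiation factors, at -2.00 and -1.08 and its relative Id1 at -1.43 and -0.69. The Wnt list, with 7 tested of 13, had medians of -0.36 and -0.38 and Lef1 past the limits, with Ctnnb1, which encodes beta-catenin, at 0.17 and 0.45 and Ccnd1 at -0.31 and -0.38. The Nodal pathway stood at 0.07 and 0.11 over 13 tested of 18, with 6 above 0 in both batches, 4 below and 0 past the limits, and its target Lefty2 had 1.03 and 0.43.

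The stress and growth lists differed among themselves. Their counts stand beside 25.9% of all tested genes above 0 in both batches and 33.1% below, with 1.89% and 2.10% past the limits and higher on plates 211 and 210. The 17 tested p53 targets of 18 had medians of 0.66 and -0.12, with 7 above 0 in both batches, 0 below and 10 mixed, and Perp, a desmosome and apoptosis gene, past the limits at 2.13 and 2.71. Trp53 itself had 0.17 and -0.70, and Bax 0.23 and -0.33. Amino acid stress genes under ATF4 had medians of -0.09 and -0.24 over 19 tested of 26, with 6 above 0 in both batches, 8 below and Ddit4 past the limits at -1.24 and -3.61, although a single cell held 64% of the Ddit4 reads of plate 210. The amino acid transporter genes Slc7a3 and Slc3a2 had -0.41 and -0.24, and -0.09 and -1.26. Dissociation and heat shock genes had -0.37 and -0.68 over 6 tested of 12, with Junb (-1.46 and -2.39) past the limits. The chaperones Hsp90aa1 and Hspa8 were at 0.39 and 1.09, and -0.08 and -0.42. The sum over the 12 listed genes went the other way, with 6870 and 9222 CPM on plate 210 and 7825.5 and 16304 CPM on plate 211. Junb, Ier2 and Dnajb1 of this list lie on chromosome 8. Interferon and MHC genes had 0.32 and 0.27 over 9 tested of 16, but -0.0075 over both batches together. The Lin28 and growth genes had 0.03 and -0.08 over 10 tested of 11. In either of these lists 0 genes were past the limits. Their most abundant members were Ifitm3 (-0.07 and -0.70) and Ifitm2 (-0.08 and -0.15), and Igf2bp1 (-0.42 and -0.24) and Mycn (0.04 and -0.75).

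Cell cycle genes were somewhat lower on plate 211 than on plate 210. S phase genes summed to 5007 and 5018.5 CPM on plate 210, 4099 and 3732 CPM on plate 211 and 5606 and 4965.5 CPM in WT. For G2 and M phase genes the sums were 3618 and 3473 CPM, 3093 and 2725 CPM, and 2942 and 2860 CPM. WT was thus nearer to plate 210 for the S phase list and nearer to plate 211 for the G2 and M phase list. S phase genes had medians of -0.27 and -0.37, with 0 of 15 above 0 in both batches, 11 below and Mcm2 (-1.10 and -1.34) past the limits, and G2 and M phase genes had -0.34 and -0.33, with 0 of 15 above, 10 below and 0 past the limits. Of all tested genes, 33.1% were below 0 in both batches and 2.10% were past the limits and higher on plate 210. The helicase genes Mcm5 and Mcm6 had -0.14 and -0.58, and -0.25 and -0.59, and the mitotic genes Top2a and Cdc20 had -0.20 and -0.23, and -0.11 and -0.54. Replication histone genes, a list drawn up after the data were seen, showed larger ratios. Of 70 such genes, 17 were tested, 16 were below 0 in both batches and 13 were past the limits, with medians of -1.48 and -1.68. Over both batches together the median was -1.56, and -0.75 with a pseudocount of 10 CPM. Hist1h1e, which encodes a linker histone, had 190 and 81.8 CPM on plate 210, 22.3 and 12.7 CPM on plate 211 and 48.8 CPM in WT, and Hist1h1b had 160 and 88.8 CPM against 29.7 and 17.5 CPM. Messages of replication histones end in a stem loop in place of a poly(A) tail, and the libraries were primed with oligo-dT. The histone genes lie close together and are near-identical in part, and 16 of the 17 were in a single window of chromosome 13.

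Ratios were also followed along the chromosomes, a comparison chosen after the data were seen. Of 357 windows of 5 Mb with at least 10 tested genes, 10 had a median of -0.5 or less in both batches and 0 had a median of 0.5 or more in both. Adjacent windows on chromosome 6 made up 3 of the 10, 6 lay on chromosome 8 and the last was the window of chromosome 13 with the histone genes. On chromosome 6 the 84 tested genes from Gcfc2 to Slc25a26 (chr6:81923669-94604672) had medians of -0.97 and -1.02. Of them 63 (75.0%) were below 0 in both batches, 27 (32.1%) were past the limits and higher on plate 210, and 0 were past the limits and higher on plate 211. Over all tested genes these shares were 33.1%, 2.10% and 1.89%. Tested genes just before this stretch were lower as well, so the window borders are not the limits of the stretch.

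Vax2, Vax2os and Trh lie in this stretch. So does Slc6a6, the taurine transporter, which had 212 and 193 CPM on plate 210, 60.2 and 46.8 CPM on plate 211 and 158 CPM in WT, and so does the replication licensing gene Mcm2 (631 and 493 CPM against 294 and 194 CPM). Against WT the stretch was at -0.01 and 0.03 on plate 210 and at -1.0 and -1.04 on plate 211, the WT cells being shared by these comparisons.

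The same was seen in single cells. The stretch gave a median of 0.925% and 0.892% of the non-mitochondrial reads of a plate 210 cell, 0.430% and 0.393% of those of a plate 211 cell, and 0.921% and 0.880% in WT. All 58 and all 26 plate 211 cells lay below the plate 210 median of their batch, and 33 and 25 lay below its lowest cell. DNA was not measured, and neither the copy number nor the chromatin of the stretch was tested.

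A shorter stretch on chromosome 12, from Gm6722 to Tmed10 (chr12:83620680-85374847), had 28 tested genes with medians of -1.23 and -1.32. Of them 27 were below 0 in both batches and 14 were past the limits and higher on plate 210. The shares over all tested genes were 33.1% and 2.10%. None of the low windows described above lay on chromosome 12, and this stretch was picked after the ratios were seen. The tested genes next to its borders were above 0 in both batches, Zfyve1 at 1.37 and 1.26 and Erg28 at 0.34 and 0.41. Its medians and counts for plates 210 and 211 therefore follow in part from the choice of borders. Just beyond Erg28, Ttll5 had -1.28 and -1.38 and Ift43 had -0.19 and -0.86, so the border at Tmed10 was not sharp. Aldh6a1, an enzyme of valine breakdown, had 35.3 and 47.8 CPM on plate 210, 12.6 and 4.16 CPM on plate 211 and 40.1 CPM in WT. Against WT the stretch had medians of 0.12 and 0.28 on plate 210 and -1.05 and -1.11 on plate 211. Its share of non-mitochondrial reads was 0.155% and 0.161% in the median plate 210 cell and 0.0796% and 0.0732% in the median plate 211 cell, and again all 58 and all 26 plate 211 cells were below the plate 210 medians. Dnmt3a, also on chromosome 12, lies outside it.

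Chromosome 8, taken as a whole, had a smaller shift, with medians of -0.25 and -0.43 over 600 tested genes. Below 0 in both batches were 315 (52.5%), with 33 past the limits and higher on plate 210 and 2 higher on plate 211. These shares were 33.1%, 2.10% and 1.89% over all tested genes. The shift was not even along the chromosome, since 6 of its 20 windows were among the low windows described above. These lay within its first 50000000 bases and at 125000001 to 130000000. The chromosome 6 and 12 stretches and chromosome 8 together held 712 tested genes (6.86% of the tested genes). They held 74 of the 218 genes past the limits and higher on plate 210 (33.9%), and 2 of the 196 higher on plate 211. Because these regions were picked for their low ratios, these shares follow in part from the choice. The chromosome 13 window, with 13 of its 38 tested genes past the limits and higher on plate 210, is not counted here. With a pseudocount of 10 CPM the medians over both batches together went from -1.22 to -0.80 for the chromosome 12 stretch and from -0.31 to -0.20 for chromosome 8. In the opposite direction, the window of chromosome 4 from Tnfrsf1b to H6pd had 63 tested genes with medians of 0.46 and 0.67. It did not reach 0.5 in batch 1 and was picked after the ratios were seen. Past the limits and higher on plate 211 were 11 of its genes, as were 1.89% of all tested genes.

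**Figure D5:**
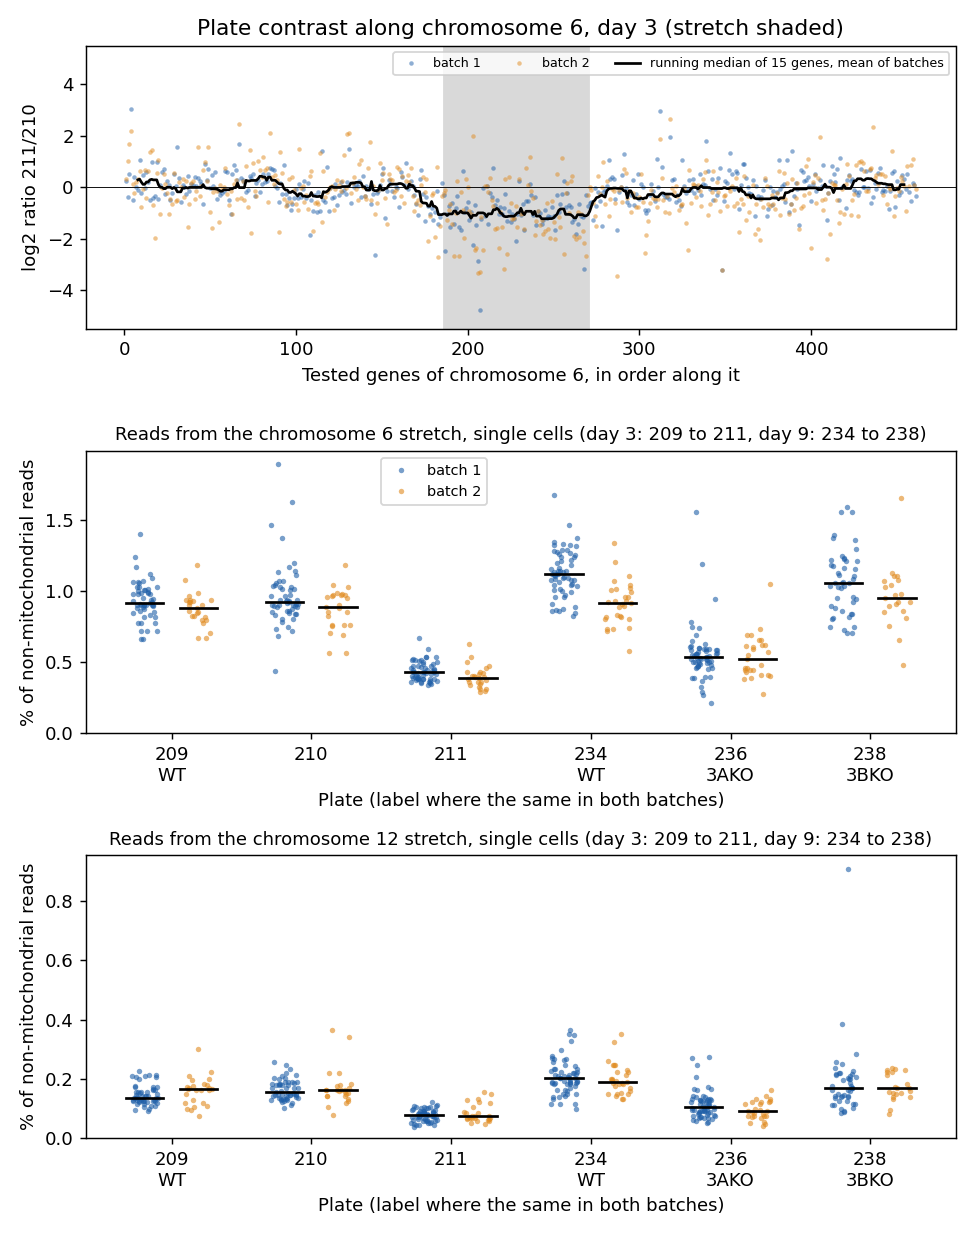
Top, log2 ratio of plate 211 to plate 210 for the tested genes of chromosome 6 in their order along it, blue for batch 1 and orange for batch 2, with a black running median of 15 genes and the 84-gene stretch shaded. Middle and bottom, percent of non-mitochondrial reads of each cell from the chromosome 6 and chromosome 12 stretches, by plate, with black medians; plates 211 and 236 sit lowest in both, at 0.430% and 0.393% and at 0.534% and 0.522% for chromosome 6.

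The same stretches were compared at day 9, where plate 236 was labelled 3AKO and plate 238 was labelled 3BKO in both batches. The chromosome 6 stretch had medians of -1.05 and -0.84 in plate 236 against the WT plate 234, and of -0.05 and -0.04 in plate 238 against it. A median cell of plate 236 had 0.534% and 0.522% of its non-mitochondrial reads from this stretch, against 1.06% and 0.954% on plate 238, and 59 of 61 and 26 of 27 plate 236 cells were below the plate 238 median. For the chromosome 12 stretch plate 236 had -0.98 and -1.08 and plate 238 had -0.05 and -0.23 against WT. Chromosome 8 had -0.26 and -0.19 on plate 236 and -0.13 and -0.25 on plate 238. For the chromosome 6 and 12 stretches, plate 211 at day 3 and the plate labelled 3AKO at day 9 were thus the low ones in both batches.

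Across all 8768 genes tested at both days, the contrast of plates 236 and 238 shared its sign with that of plates 211 and 210 for 47.5% of genes, and the Pearson correlation across genes was -0.05. At day 9, 4.79% of these genes were at a log2 ratio of 1 or more in both batches and 3.90% at -1 or less. Of the 118 genes higher on plate 211 at day 3 and tested at day 9, 12 (10.2%) were past the limits in the same direction and 12 in the opposite direction. Of the 181 genes higher on plate 210, 28 (15.5%) were past the limits in the same direction and 13 (7.18%) in the opposite direction. Of the 28, 13 lay in the chromosome 6 and 12 stretches, and 18 when chromosome 8 is added.

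Genes past the limits in the same direction at both days included Vax2, with 1.97 CPM under the 3AKO label and 35.6 CPM under the 3BKO label at day 9, and Vax2os, with 4.23 and 69.5 CPM. Peg10 had 14.4 CPM under the 3AKO label and 0.0660 CPM under the 3BKO label, and Smc1b 42.6 and 4.33 CPM. Hormad1 was on the same side too, at 67.1 and 23.5 CPM, as was Txnip, a glucose-responsive inhibitor of glucose uptake, with day 9 ratios of -3.29 and -3.84. Coro6, with reads in too few cells to be tested at day 9, was at 7.46 CPM under the 3AKO label and had 0 reads under the 3BKO label, at least 75.3-fold higher by the floor of 3 counts over the plate.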

How the data were processed

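Single-cell RNA-seq (Smart-seq2, oligo-dT priming, 1 cell per well) was analysed from a table of raw counts per gene name as deposited by the authors. Per the study's methods and the submitters' processing notes, the authors checked read quality with FastQC 0.11.2, trimmed reads with Trim Galore 0.5.0, aligned them to mm10 (GRCm38) with STAR 2.7.1a and counted them over GENCODE genes with featureCounts 1.6.1, leaving out multi-mapped reads; the strand setting is not given in the sources used here. Genes with near-identical copies or overlapping exons are therefore uncertain. A further 26 columns with no matching sample were not used. Of the gene names, 97% were found in GENCODE vM21, which gave positions.

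Counts of kept cells were summed per plate and batch, scaled to CPM and compared as log2(CPM + 1). With 1 sample per plate no test was run, intervals are exact (95%) and the floor is 3 counts. No doublet caller was run, since each well was sorted to hold 1 cell. Named genes were the 15 with the largest and the 15 with the smallest ratio past the limits, ranked by the batch value smaller in size and leaving out unnamed gene models, mitochondrial and Y-linked genes. To these were added Dnmt3a, Dnmt3b, Dnmt3l, Dnmt1, Tet1 and Tet2, the list members past the limits and the 2 most abundant tested members of each list. The members, gene lists and rules were chosen with earlier results of these data known; the chromosome stretches, the histone list and the cells with under 4000 genes were looked at after the values were seen. Other genes given to show the range of a list or stretch, or the day 9 values, were chosen after their values were seen. Alternatives covered the cell filter, scaling (TMM with edgeR 4.0.16, size factors with DESeq2 1.42.0), pseudocount, detection limit, single-cell means, thinning and grouping of batch 2 by label. Python 3.11.15, numpy 2.4.6, pandas 2.3.3, scipy 1.17.1 and R 4.3.3 were used, and the calculation was tested on simulated counts.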

Additional observations from a re-analysis of the deposited data

Results flagged for a closer look

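For 5 of the genes named by the rule, the day 3 contrast of plate 211 over plate 210 and the day 9 contrast of the plate labelled 3AKO over that labelled 3BKO were past the limits in opposite directions in every library pair. The difference between the days was not tested, and the days share no cells. Calcoco2 had day 3 log2 ratios of 3.14 and 3.02 and -4.87 over both batches at day 9, where it stood at 10.3 CPM under the 3AKO label and 330 CPM under the 3BKO label. Stra8 had 1.67 and 2.45 against -4.59, with 9.18 and 244 CPM at day 9. Perp had 2.13 and 2.71 against -2.00. In the other direction, Car14 had -2.65 and -2.07 against 5.22, with 70.7 and 0.924 CPM at day 9, and Lef1 had -1.06 and -2.10 against 2.16.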

How the results depend on the processing

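Grouping batch 2 by its genotype label exchanges the plates there, so the ratios of batch 2 change sign by construction, the correlation across genes becomes -0.35 and 32 genes are past the limits in each direction. The Dnmt3a ratio of -4.52 over both batches was -4.68 with no cell filter, -4.35 with a stricter one, -4.28 as a mean of single-cell CPM, -4.30 after thinning and -4.04 with a pseudocount of 10 CPM. Dnmt3b went from 0.76 to 1.11 in batch 2 alone. Genes past the limits numbered 29 and 76 (higher on plate 211, then 210) with a pseudocount of 10 CPM, and 388 and 349 with no detection limit, where the correlation between batches was 0.23. Detection in 40% of cells left 95 higher on plate 211. The share of these genes higher on plate 211 was 47.3%, and became 27.6% with the larger pseudocount and 36.7% with detection in 40% of cells; more genes were higher on plate 211 than on plate 210 with TMM (53.8%), size factors (53.1%), single-cell means (54.4%) and the median of all genes set to 0 (54.2%). Leaving out chromosome 8 and the chromosome 6 and 12 stretches, an alternative added after the data were seen, left 144 higher on plate 210. With the stricter cell filter Polr2a, Sf3a2 and Rpph1 turned to 0.049, 0.051 and 0.88, and without cells under 4000 genes, also added later, to 0.038, 0.048 and 0.77. No other named gene changed sign in the 420 alternative values. Batch 2 ratios had a median of 0.02 over all genes with TMM and 0.03 with size factors. The interferon and ATF4 lists changed the sign of their median with several settings, and the naive, p53 and Lin28 lists between batches. No paired analysis was possible because no test was run and each plate was 1 sample. Low levels are limited by 25 to 58 cells per library.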
